A study of Rattus norvegicus with 24 samples.

Results

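The genes that encode the proteins of the cytosolic ribosome were described in the nucleus accumbens (NAc) of rats, a part of the ventral striatum. A gene was taken as a member when it was annotated as protein coding and its symbol was Rps or Rpl with a number, or Rplp0, Rplp1 or Rplp2, with the Rps6k kinases left out. By this rule on names alone, 101 of the 32545 genes of the table were members, 35 of the small subunit (Rps) and 66 of the large subunit (Rpl and Rplp), under 81 symbols. All 24 libraries came from adult male Sprague Dawley rats that arrived at 8 weeks of age, with 4 libraries for each of 6 groups.

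In the injection experiment, rats received 5 injections of saline or of lipopolysaccharide (LPS, a bacterial cell wall component that sets off an immune response) at 250 µg/kg, and later saline or heroin on 5 days. Saline-Saline received saline both times, LPS-Saline received LPS and then saline, Saline-Heroin received saline and then heroin, and LPS-Heroin received LPS and then heroin. Heroin doses rose from 1 to 5 mg/kg, and by the sample annotation tissue was taken 1 h after the last injection. In the methods of the study, all injected rats had a brief locomotor test after that injection and were killed within 1 h of its end. The labels give 1 week between the pretreatment and the heroin, and the methods of the study give a shorter gap. In the self-administration experiment, rats pressed a lever in 10 daily sessions of 6 h, for heroin at 0.075 mg/kg per infusion (Heroin-SA) or for saline (Saline-SA), and were killed at the end of the last session. These rats carried a jugular catheter, lived alone and were kept on a reversed light cycle, and the injected rats were housed in pairs. No transgene or mutant allele was used. By the labels and methods, the libraries of a group are biological replicates that were not pooled. The tissue was not sorted, so fewer cells of a type and less RNA per cell cannot be told apart.

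Ribosomes are built from ribosomal RNA and about equal molar amounts of each ribosomal protein, and proteins made in excess are broken down. The mRNAs of nearly all these proteins begin with a C and a run of pyrimidines, the terminal oligopyrimidine (TOP) motif, through which mTORC1, LARP1 and the 4E-BPs set how much of them is translated. Most mammalian ribosomal protein genes are single active genes with introns, and the genome also holds many intronless copies of their mRNAs, the processed pseudogenes, with nearly the same sequence. A few paralogs, among them Rpl3l and Rpl39l, are known for expression in muscle or in testis.

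The table gives FPKM, fragments per length of gene and total of the library, from poly(A) RNA, so levels of different genes can be set side by side per length. The smallest and the largest library held 12312878 and 18850240 reads on genes. Mitochondrial genes held 6.82% to 9.10% of them in the 16 libraries of the injection experiment and 10.0% to 15.9% in the 8 of the self-administration experiment, and Saline-SA replicates 3 and 4 stood highest. Markers of striatal medium spiny neurons were present in every library, with all 14 above the filter and a summed level of at least 1389 FPKM. The highest correlation between log2 values of any 2 libraries was 0.962, so no library appeared to have been deposited under 2 names.

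The start sites of the members are shown first, since the TOP motif is the sequence by which these mRNAs are known. RefSeq promoters of the assembly GRCr8 were found for 60 of the 81 symbols, 61 promoters in all. The measured rows have coordinates on rn6, a different build. Promoters were matched by symbol alone, so some lie on another chromosome than the row of that symbol with the highest level. The Rpl37 promoter is on chromosome 2 and that row on chromosome 10. The Rpl38 promoter is on chromosome 10 and that row on chromosome 8. Each line below gives 30 bases, 15 before the annotated start base and 15 from it onwards, 5′ to 3′ on the gene's strand, with the longest run of C and T that touches the 10 bases on either side of the start in capitals. Rpl34, Rpl35, Rpl19, Rpl31, Rps15, Rps18 and Rps27 are given as members with long runs, Rps7 and Rpl3 because their levels are described below, and Rpl22l1, Rpl7l1 and Rpl3l as paralogs whose longest run does not cover the start base. The run of Rpl3l goes on past the window, to 9 bases. These lines do not divide paralogs from the other members. The longest run also missed the start base in Rpl41, Rpl36, Rpl18, Rps16 and Rps19, and the paralog Rps4y2 had a run of 8 bases over it.
Rpl34, chr2:221962269-221962298 (- strand): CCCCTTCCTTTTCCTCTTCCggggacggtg
Rpl35, chr3:43165907-43165936 (- strand): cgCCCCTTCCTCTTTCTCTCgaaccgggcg
Rpl19, chr10:83519049-83519078 (+ strand): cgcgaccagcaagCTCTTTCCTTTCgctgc
Rpl31, chr9:49143096-49143125 (+ strand): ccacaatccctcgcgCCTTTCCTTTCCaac
Rps15, chr7:10068101-10068130 (- strand): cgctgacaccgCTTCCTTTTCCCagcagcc
Rps18, chr20:4933730-4933759 (+ strand): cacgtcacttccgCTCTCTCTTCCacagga
Rps27, chr2:177964592-177964621 (- strand): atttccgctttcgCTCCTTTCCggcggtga
Rps7, chr6:50999431-50999460 (- strand): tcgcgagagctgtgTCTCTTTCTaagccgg
Rpl3, chr7:113507976-113508005 (- strand): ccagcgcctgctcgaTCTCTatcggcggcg
Rpl22l1, chr2:113683181-113683210 (+ strand): gctccgtggatatccggTTCCgagttgcgc
Rpl7l1, chr9:21695703-21695732 (+ strand): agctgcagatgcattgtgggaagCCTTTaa
Rpl3l, chr10:14258431-14258460 (+ strand): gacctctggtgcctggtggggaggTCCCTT

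The longest run held at least 5 pyrimidines and covered the start base in 34 of the 61 promoters (55.7%), against 9.87% of the 33469 promoters of the table. Runs of at least 8 that covered it were found in 28 (45.9% against 4.19%), and the start base itself was C in 31 (50.8% against 24.1%). The median length of the longest run was 10 bases in the members and 4 in all promoters. In addition, 3 sets of letters were searched on both strands from 250 bases before to 50 after the start base. CCGGAAG, the core of ETS family sites, was found in 20 members (32.8%, against 8.75% of all promoters), AAGATGGC, the core of the YY1 site, in 4 (6.56% against 3.17%) and the TATA box letters TATAAA in 8 (13.1% against 14.2%). CCGGAAG ends with the letters AAG with which AAGATGGC begins, so these 2 can overlap. A match describes the letters of the window, and annotated starts can lie some bases from the ones used in the NAc.

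**Figure D1:**
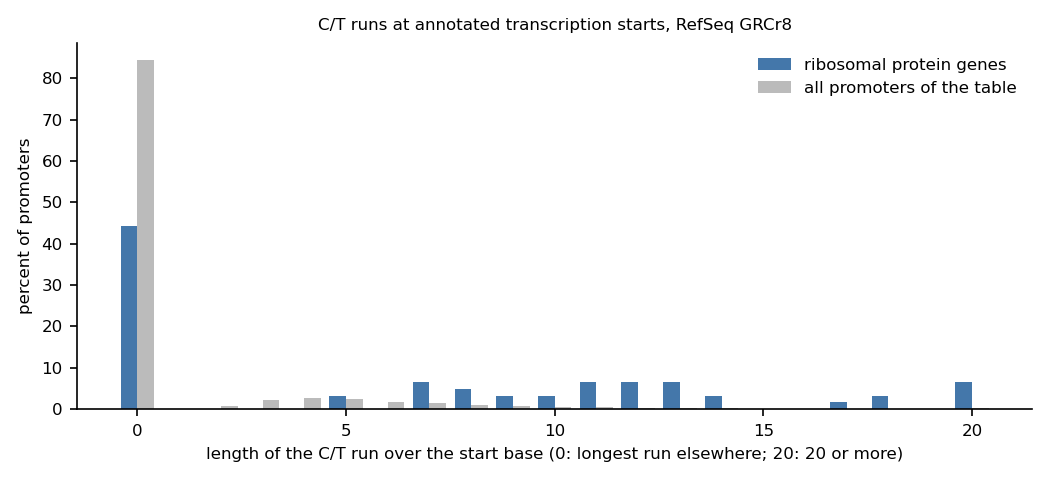
Length in bases of the C/T run over the annotated start base (x axis) against the percent of promoters (y axis), for 61 promoters of ribosomal protein genes (blue) and the 33469 promoters of the RefSeq GRCr8 table (grey); at 0 the longest run of the window does not cover the start base. In the members, 55.7% lie at 5 or more, against 9.87% of all promoters.

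Levels were mostly higher in the members with introns than in those without, though the classes overlapped. Of the members with introns, 7 averaged below 1 FPKM, and the intronless Rpl37 row on chromosome 10 averaged 79.5 FPKM. The 75 members with introns had a median level of 265 FPKM over the 24 libraries, and 57 of them averaged at least 100 FPKM. The 26 members without introns had a median of 3.01 FPKM, and none reached 100. Of all 101, 88 averaged at least 0.5 FPKM, 17 averaged below 1 and 2 intronless Rpl39 copies had no read in any library.

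The highest level belonged to Rpl41 (chr7:2972900-2973977 on rn6, - strand), which encodes the shortest protein of the ribosome, with a mean of 681 FPKM and a range of 562 to 993. Next came Rplp1 on chromosome 8, an acidic stalk protein of the kind that recruits elongation factors, at 654, and Rpl13a, a protein of the large subunit, at 654. Rpl41 exceeded Rplp1 in 16 of 24 libraries and Rplp1 exceeded Rpl13a in 8, so these 3 were not separated beyond their spread. The small subunit was led by Rps29 on chromosome 6 (610.1 FPKM), a zinc-binding protein that lay below Rpl13a in 19 of 24 libraries, and by Rps23 (548 FPKM), a protein of the decoding centre. Rpl35 (574 FPKM), which lies near the exit of the peptide tunnel, exceeded Rps23 in 13 of 24 libraries. Rps15 and Rpl13 averaged 450.3 and 450.3 FPKM, and Rps15 was the higher in 10 libraries. At the low end, the Rplp2 row held 1 read in 1 library, and the Rpl39 copies on chromosome X at 33721935 and on chromosome 7 held none. Rows outside the name rule that name the same protein as Rplp2 averaged 64.7 FPKM (LOC498555) and 46.0 FPKM (LOC100911575).

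**Figure D2:**
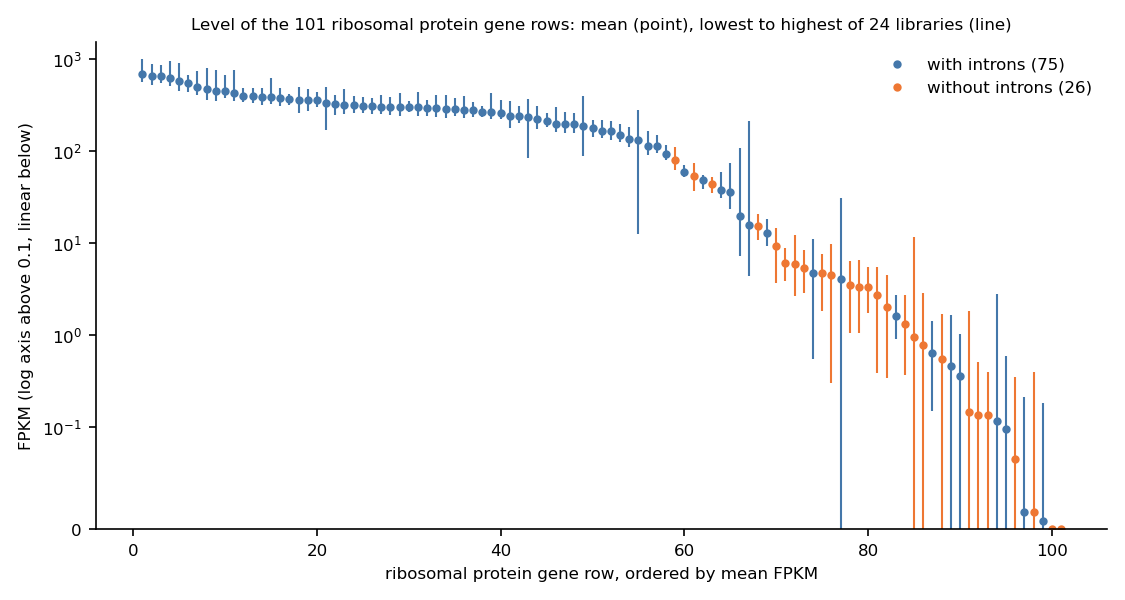
Level in FPKM (y axis, log above 0.1 and linear below) of the 101 members in order of their mean, with points at the mean and lines from the lowest to the highest of 24 libraries, for genes with introns (blue) and without (orange). The means of genes with introns run up to 681 FPKM (Rpl41), and no intronless gene averages more than 79.5 FPKM.

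Paralogs sat below the core gene wherever both had a row. Rpl3, which reaches into the peptidyl transferase centre, averaged 309 FPKM against 0.642 for Rpl3l, its paralog of heart and skeletal muscle. Rpl39, on chromosome X, averaged 280.5 against 0.454 for Rpl39l, known from testis. Rps27 averaged 162 against 12.7 for Rps27l, a target of p53. Rpl7 and Rpl7l1 were nearly level at 58.6 and 47.5 FPKM, but the Rpl7 row is 5151 bases long, and FPKM is per base of that length. The median length was 630 bases over the 65 members with introns and a mean of at least 10 FPKM. Rpl22l1 stood at 93.2 FPKM and Rpl22l2, an intronless row, at 0.134. Rpl10l, a copy of Rpl10 known from testis, averaged 1.99 FPKM, and Rps4y2 averaged 3.34 against 43.9 for the row named Rps4x, which has no intron in this annotation and lies on chromosome 4.

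Some core genes had low rows of their own, named here after their values were seen. The row of Rps6, the substrate of the S6 kinases, averaged 0.360 FPKM, and a row outside the name rule that names the same protein, LOC100911372, averaged 21.5. Rpl8 lay between 4.37 and 8.39 FPKM in 22 libraries and at 212 and 21.9 in Saline-SA replicates 2 and 4. A second kind of row holds the same proteins: 192 rows outside the name rule carry a description that names one of the 75 proteins of the members, and 60 of the 75 had more than 1 row. How reads that fit several of these rows were counted is not given in the sources used here, so the level of a single row is uncertain for such proteins. In addition, 24 members hold 50 small nucleolar RNA rows within their span and 14 overlap another row.

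Spread between libraries also differed among the members. Within groups, the SD of log2 FPKM had a median of 0.140 in the 75 members with introns and of 0.561 in the 26 intronless ones. In the 65 members with introns and a mean of at least 10 FPKM it was 0.129. The intronless members were also scarcer, with a median level of 3.01 FPKM, so level and the lack of introns were not told apart. Rpl18 was among the steadiest, with 0.0702, and the row Rpl35a on chromosome 12 at 7424258 was the least steady, with 3.12. That row read 0, 30.4, 0 and 0 FPKM in the 4 Saline-SA libraries and 0, 0, 23.5 and 0.218 in LPS-Saline, so 1 library of each group carried nearly all its reads. Of the 101 members, 40 had a within-group SD over 0.25.

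Some core genes scattered between libraries, and for Rps19 the scatter lessened when rows were summed by protein. The within-group SD of log2 FPKM was 0.954 for Rps19, less than for Rpl8 (0.994) and for the Rpl7a row on chromosome 3 at 4867233 (1.05). Rps19, a small-subunit protein mutated in Diamond-Blackfan anaemia, has a row at chr1:81750928-81756627 and a second at chr9:16802319-16807966 under the name LOC100910336. In Saline-SA, replicates 1 to 4 of the Rps19 row read 135, 171, 12.6 and 22.7 FPKM. The second row read 120.4, 87.6, 479 and 147 FPKM in the same libraries, highest where the first was lowest. In LPS-Heroin, the Rps19 row read 134, 193, 279.7 and 176 FPKM and the second row 93.2, 82.8, 23.8 and 30.4. Summed over its 8 rows, the protein's within-group SD was 0.327 on the log2 scale, against 0.954 for the row alone. The same held for Rpl30 (0.559 alone and 0.150 summed), for Rps27a, which is made as a fusion with ubiquitin (0.424 and 0.142), and for the stalk-base protein Rpl12 (0.295 and 0.109). These 4 were chosen after their values were seen. In 7 of 75 proteins, the member row with the highest level had a within-group SD at least 1.5 times that of the sum; one of the 7 was the scarce Rpl22l2, at a mean of 0.134 FPKM. The part of read assignment in this was not tested.

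**Figure D3:**
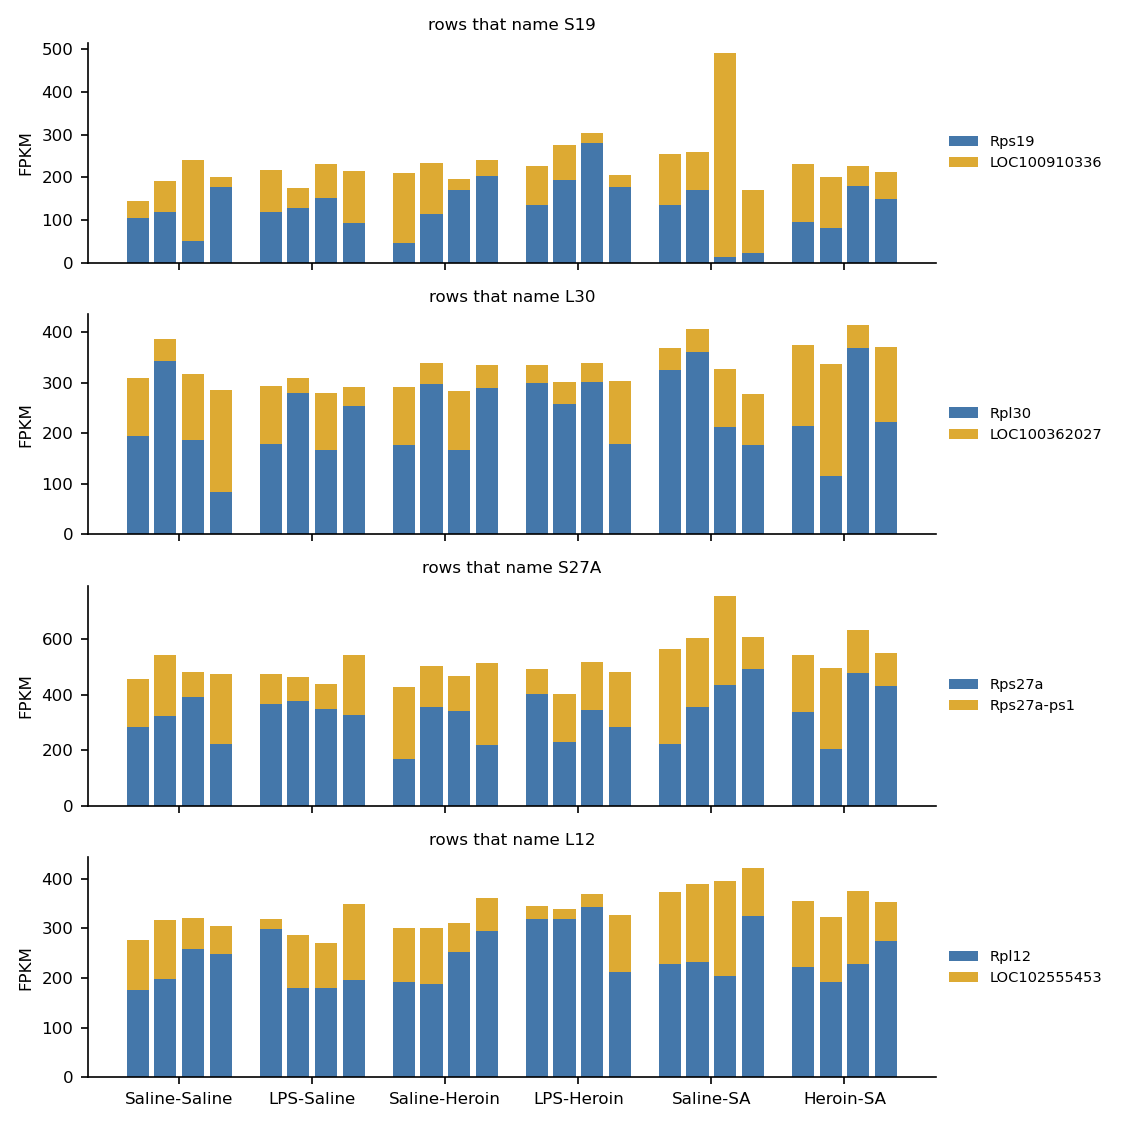
Level in FPKM (stacked bars, linear axis from 0) of the member's row (blue) and of the other row drawn with it (yellow) that names the same ribosomal protein, library by library in the 6 groups, for S19, L30, S27A and L12. The bars' totals vary less than their parts: for S19 the within-group SD of log2 FPKM is 0.954 for the member's row and 0.327 for the sum of all its rows, drawn or not.

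Reads on all 101 members made up between 1.08% and 1.53% of the reads on genes. The share of Saline-Saline was 1.21 ± 0.0810% (SD, n = 4), that of LPS-Saline 1.15 ± 0.0703%, that of Saline-Heroin 1.19 ± 0.0531% and that of LPS-Heroin 1.20 ± 0.0422%. Saline-SA had 1.45 ± 0.0719% and Heroin-SA 1.35 ± 0.0889%. The 4 Saline-SA libraries, at 1.41, 1.5002, 1.53 and 1.38%, all lay above the highest of the 16 injected rats (1.33%), and Heroin-SA, at 1.32, 1.26, 1.47 and 1.33%, overlapped Saline-SA. With mitochondrial genes left out of the total, the shares became 1.31%, 1.25%, 1.30%, 1.31%, 1.67% and 1.51% in the same order.

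**Figure D4:**
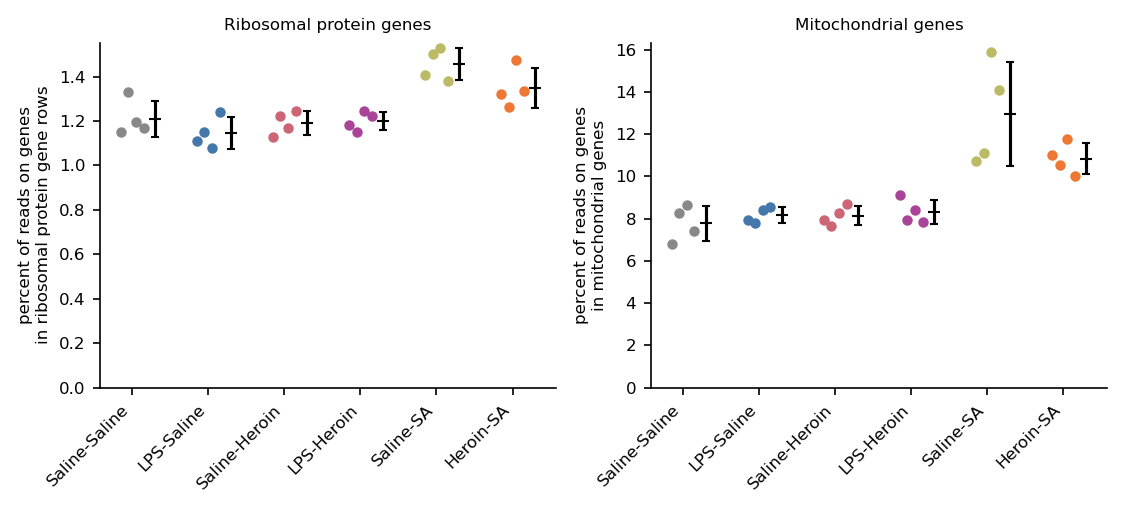
Percent of reads on genes that fell on the 101 ribosomal protein genes (left) and on mitochondrial genes (right), 1 point per library, with the mean ± SD of each group of 4 as bars; both axes start at 0. Saline-SA lies at 1.38 to 1.53% on the left, above the 1.15 to 1.33% of Saline-Saline, and its mitochondrial share reaches 15.9%.

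The effect of LPS alone was read from LPS-Saline against Saline-Saline. Differences are of log2(FPKM + 0.1), fitted with limma over all genes with a mean of at least 0.5 FPKM, and a gene is said to be called where its unadjusted p was at most 0.05. Rpl26, a large-subunit protein known to bind p53 mRNA, read 179.8, 197, 191 and 177 FPKM in Saline-Saline and 170.1, 170.3, 155 and 167 in LPS-Saline. The groups did not overlap, and the difference was -0.17 (SE 0.059, unadjusted p = 0.0189; exact permutation p = 0.0286) on the log2 scale. Of the 86 members tested, 5 were called, all lower after LPS, which is 5.81% of them, against 2.98% of all genes called lower and 3.65% called higher. The others were Rpl28 and Rpl18 of the large subunit, Rps20, and the intronless Rps29 copy on chromosome 7. Rpl18 (185 ± 2.27 against 206 ± 13.0 FPKM) and Rpl27, which was not called, also lay lower without overlap, as did 1.77% of all genes. Over the members tested, 18 were above 0, against 51.9% of all genes, and the median log2 fold change was -0.066, against 0.0068 over all genes. Among 347 other genes of similar shortness, at most 1000 bases and at least 50 FPKM, 28 were called lower (8.07%) and 108 were above 0, with a median of -0.048.

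No member, and none of the 15119 genes tested, had an adjusted p under 0.05 in this comparison by limma, and limma-voom on recovered reads gave 8 members at an unadjusted p of at most 0.05, all lower. The count of 5 fell to 0 without Saline-Saline replicate 2, to 2 without Saline-Saline replicate 4, to 3 without LPS-Saline replicate 1 and to 2, of which 1 was higher, without LPS-Saline replicate 3. The shift of the whole set moved too, to 40 of 86 members above 0 and a median of -0.011 without Saline-Saline replicate 2, and to 31 of 85 members above 0 and a median of -0.030 without LPS-Saline replicate 3. Choroid plexus markers lay below 0 in 7 of 7 in LPS-Saline, with 1 called. Their summed levels overlapped, at 49.4 to 67.8 FPKM (median 52.0) against 46.0 to 417 in Saline-Saline (median 62.9). Oligodendrocyte markers were below 0 in 10 of 10, with none called. The part of these cell types in the result was not tested.

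Heroin alone, read from Saline-Heroin against Saline-Saline, gave few calls. Of 87 tested, 3 were called, all lower (3.45%, against 3.01% of all genes), and all 3 were scarce intronless rows. The Rps29 copy on chromosome 7 read 1.82, 1.54, 2.03 and 1.59 FPKM in Saline-Saline and 0.733, 0.366, 0.386 and 1.43 in Saline-Heroin, 1 to 7 reads over the 24 libraries. The groups did not overlap, with a difference of -1.32 (SE 0.39, unadjusted p = 0.00798), and the Rps29 copy on chromosome 13 did not overlap either, at 2.06 ± 0.791 against 3.34 ± 0.233 FPKM; 1.49% of all genes did so in this direction. Rpl10l read 1.29 ± 0.315 against 2.22 ± 0.628 FPKM. The abundant Rps29 gene on chromosome 6 was at 529.9 ± 31.8 against 587 ± 74.1 FPKM, a difference of -0.14 (SE 0.093, unadjusted p = 0.164). Of all genes, 3.56% were called higher. Above 0 lay 35 members, and 50.6% of all genes, and the members' median log2 fold change was -0.019. Of the 347 other short genes 122 lay above 0, with a median of -0.032. No adjusted p was under 0.05 by limma, and limma-voom called 1 member. The direction was not the same without some libraries. Without Saline-Saline replicate 2 there were 6 calls, 4 higher and 2 lower, with 56 of 88 members above 0 and a median of 0.022. Without Saline-Saline replicate 3 there were 6, of which 1 was higher, and without Saline-Heroin replicate 2 or 3 there were 5, of which 1 and 2 were higher. The median was 0.0028 without Saline-Heroin replicate 1 and 0.0068 without replicate 3. Among markers, oligodendrocyte genes lay below 0 in 10 of 10 (summed 3553 to 7005 FPKM in Saline-Heroin and 5017 to 7796 in Saline-Saline). Red blood cell genes lay above 0 in 5 of 5 (summed 447 to 1743 FPKM in Saline-Heroin and 408 to 598 in Saline-Saline). Medium spiny neuron markers lay above 0 in 14 of 14, with none called. Markers of fibroblasts and mural cells did so in 10 of 11, with 3 called higher and 1 lower. The part of these cell types was not tested.

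LPS followed by heroin was set against the same Saline-Saline rats, so its chance differences are shared with those of the single treatments. Of 87 members tested, 3 were called, all higher (3.45%, against 6.45% of all genes called higher and 4.81% lower). Rpl5l1, an intronless copy of the gene for Rpl5, read 10.8, 13.9, 12.5 and 11.5 FPKM in Saline-Saline and 15.5, 15.2, 15.1 and 14.0 in LPS-Heroin. It was the single member whose groups did not overlap (3.70% of all genes were higher without overlap), and the difference was 0.30 (SE 0.088, unadjusted p = 0.00803, adjusted p = 0.260); it held its sign and its unadjusted p in all 18 alternatives. Rpl5 itself, the 5S RNA partner that binds MDM2, stood at 243 ± 12.5 against 237 ± 9.86 FPKM, a difference of 0.033 (SE 0.057, unadjusted p = 0.575). The Rps19 row differed by 0.88 (SE 0.35, unadjusted p = 0.0345), and summed over rows S19 differed by 0.35 (SE 0.18, unadjusted p = 0.0748). Rpl12 differed by 0.43 (SE 0.17, unadjusted p = 0.0361) as a row and by 0.18 (SE 0.066, unadjusted p = 0.0253) as a sum. Above 0 lay 43 of the members, against 50.1% of all genes, and the median was -0.0018. Of the 347 other short genes 155 lay above 0, with a median of -0.017. No gene passed an adjusted p of 0.05 by limma, and the count of 3 became 1 without Saline-Saline replicate 1 and 5 without Saline-Saline replicate 2, where the set had 61 of 87 members above 0 and a median of 0.058. Beside these values, cortical glutamatergic markers lay above 0 in 7 of 7, with 5 called (summed 353 to 449 FPKM in LPS-Heroin and 98.0 to 279 in Saline-Saline). Septal and ventral forebrain markers lay below 0 in 7 of 8, with 4 called lower and 1 higher (summed 31.4 to 60.8 FPKM in LPS-Heroin and 51.8 to 132 in Saline-Saline). Oligodendrocyte markers lay below 0 in 10 of 10, as after LPS alone and heroin alone, beside a members' median of -0.0018. Red blood cell genes lay above 0 in 5 of 5, with 4 called. The part of these cell types was not tested.

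Among LPS-treated rats, heroin was set against saline (LPS-Heroin against LPS-Saline). The LPS-Saline libraries are those of the LPS comparison above, so chance differences in them enter both comparisons, with opposite sign. Rplp0, the stalk protein on which Rplp1 and Rplp2 sit, read 259, 256, 232 and 236 FPKM in LPS-Saline and 271, 261, 285 and 283 in LPS-Heroin, without overlap and with a difference of 0.16 (SE 0.060, unadjusted p = 0.0232; exact permutation p = 0.0286). Rps20, a small-subunit protein, read 282, 264, 258 and 246 FPKM in LPS-Saline and 285, 285, 302 and 299 in LPS-Heroin, again without overlap. Rps2, of the channel through which mRNA enters, read 288, 298, 282 and 305 and, after heroin, 314, 362, 307 and 331 FPKM, also without overlap and with a difference of 0.16 (SE 0.065, unadjusted p = 0.0359). Of 87 members, 8 were called higher and 2 lower (9.20% and 2.30%, against 2.41% and 2.19% of all genes), and 6 were higher without overlap (1.28% of all genes) and 1 lower (1.30%). The higher ones were Rps2, Rps20, Rplp0, Rpl12, Rpl26, Rps19, Rps10 on chromosome 6 and Rpl35a on chromosome 6, and the lower ones Rps27l and Rps4y2. Rps19 and Rpl12 have other rows that name the same protein, as described above. Summed over rows, S19 stood at 265 ± 45.2 FPKM in LPS-Heroin and 235 ± 26.3 in LPS-Saline. L12 stood at 346 ± 18.0 and 307 ± 35.3 FPKM in the same order. Over the members, 67 of 87 lay above 0 (49.8% of all genes), with a median of 0.079; of the 347 other short genes 227 lay above 0, with a median of 0.031, and 4.03% were called higher.

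No adjusted p was under 0.05 by limma in this comparison either, where the smallest among members was 0.977, and limma-voom called 6. The 10 calls became 17, of which 16 were higher, without LPS-Saline replicate 4, 6 without LPS-Heroin replicate 1 or 4, and 4 without LPS-Saline replicate 2 or 3 or LPS-Heroin replicate 3. Without LPS-Saline replicate 3 the set had 61 of 87 members above 0 and a median of 0.049. Cortical glutamatergic markers lay above 0 in 6 of 7 (summed 353 to 449 FPKM in LPS-Heroin and 119 to 389 in LPS-Saline) and red blood cell genes in 5 of 5 (summed 579 to 851 FPKM in LPS-Heroin and 335 to 1159.6 in LPS-Saline), with none called; their part was not tested. Rpl26 lost its call in each of the 8 fits that left out a library. Against Saline-Heroin, LPS-Heroin had 3 members called of 87, all higher (3.45%, against 2.33% of all genes called higher and 1.88% lower): Rpl39 on chromosome X, Rpl7l1 and Rpl10l. None of the members was without overlap there, 58 lay above 0 (50.6% of all genes) and the median was 0.032. Of the 347 other short genes 210 lay above 0, with a median of 0.020, and 2.59% were called higher. Rpl7l1, a paralog of Rpl7 with a nucleolar role, stood at 50.6 ± 3.49 against 44.9 ± 2.03 FPKM, a difference of 0.17 (SE 0.064, unadjusted p = 0.0283). Limma-voom called 0 of the members in that comparison, no adjusted p was under 0.05, and the count was also 0 without Saline-Heroin replicate 3 or LPS-Heroin replicate 2. The median ran from 0.012 to 0.064 over the fits without 1 library, lowest without LPS-Heroin replicate 3 and highest without Saline-Heroin replicate 4. Markers of fibroblasts and mural cells lay below 0 in 9 of 11, with 3 called lower and 1 higher. Their summed levels were 52.4 to 116 FPKM in LPS-Heroin and 90.4 to 165 in Saline-Heroin. Those of oligodendrocytes lay above 0 in 10 of 10, with 1 called. Medium spiny neuron markers lay below 0 in 14 of 14 and those of ependyma and motile cilia in 5 of 5, with none called. Septal and ventral forebrain markers did so in 7 of 8, with 1 called lower. The part of these cell types was not tested.

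The LPS by heroin interaction, the heroin effect after LPS less the heroin effect after saline in the 16 injected rats, was above 0 for 70 of 88 members, against 48.9% of all genes and 248 of the 347 other short genes. The median was 0.093 over the members and 0.062 over the short genes. These are the libraries of the comparisons above, so the interaction shares their chance differences. Rpl41 read 607, 764, 679 and 637 FPKM after saline alone, 577, 624, 562 and 613 after LPS, 599, 592, 603 and 664 after heroin and 666, 602, 741 and 628 after both. The means after LPS or heroin lay below those of the other 2 groups, with an interaction of 0.27 (SE 0.11, unadjusted p = 0.0291), and all 4 groups overlapped. Of 88 members, 6 were called, all above 0 (6.82%, against 2.14% of all genes called above 0 and 1.87% below, and 6.34% of the short genes above): Rpl41, Rpl26, Rps20 and Rpl18 among the abundant genes, and Rpl10l and the Rps29 copy on chromosome 7 among the scarce ones. The smallest adjusted p was 0.992 by limma. The count became 2 without Saline-Saline replicate 2 or LPS-Saline replicate 3, and 3 without Saline-Heroin replicate 1 or LPS-Heroin replicate 3. The set had 62 of 88 members above 0 and a median of 0.042 without the first of these and 64 of 88 members above 0 and a median of 0.060 without the second. Oligodendrocyte markers lay above 0 in the same contrast in 10 of 10, with a median of 0.39 and 1 called. Markers of ependyma and motile cilia did so in 6 of 6, with none called. Medium spiny neuron markers lay below 0 in 13 of 14 and red blood cell genes in 5 of 5, with none called. The part of these cell types was not tested.

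Heroin self-administration was set against saline self-administration, and Rpl3 had the smallest p among the members. Rpl3 (chr7:121297356-121302818, - strand) read 377, 373, 385 and 357 FPKM in Saline-SA and 303, 286, 332 and 289 in Heroin-SA. Every Heroin-SA library lay below every Saline-SA library, and the difference was -0.30 (SE 0.071, unadjusted p = 0.00194, adjusted p = 0.279; exact permutation p = 0.0286). It kept its sign and an unadjusted p of at most 0.05 in all 20 alternatives, which ran from -0.35 to -0.28. Rpl6, a large-subunit protein, read 315, 352, 401 and 319 FPKM in Saline-SA and 294, 270.3, 315 and 264 in Heroin-SA, also without overlap, with a difference of -0.28 (SE 0.097, unadjusted p = 0.0196). In all, 7 of 89 members were called, all lower (7.87%, against 5.32% of all genes called lower and 6.16% higher, and 7.78% of the other short genes lower), and 2 were lower without overlap (3.24% of all genes). Among the others called were Rpl36, Rpl13, the scarce Rpl3l and Rps7, which like Rpl5 and Rpl11 binds MDM2.

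Several of these differences rested on 2 libraries. Rps7 read 526, 526, 790.0 and 664 FPKM in Saline-SA and 491, 465, 555 and 473 in Heroin-SA, and Rpl36 read 445, 481, 752 and 649.7 in Saline-SA and 428, 367, 485 and 426 in Heroin-SA. For both genes, Saline-SA replicates 3 and 4 stood above the others of their group, and these are the libraries with mitochondrial shares of 15.9% and 14.1%. Without them, Rps7 differed by -0.088 (unadjusted p = 0.363), Rpl36 by -0.12 (unadjusted p = 0.319) and Rpl6 by -0.22 (unadjusted p = 0.0534), while Rpl3 differed by -0.31 (unadjusted p = 0.00665). Of the 4 members then called, Rpl3 was lower and 3 rows with at most 21 reads in any library were higher. Single libraries moved the count of 7 as well: it was 4, of which 1 was higher, without Saline-SA replicate 4, 3 without Heroin-SA replicate 1, 1 without Heroin-SA replicate 2, 2 without Heroin-SA replicate 4, 15 without Saline-SA replicate 1 and 18 without Heroin-SA replicate 3.

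Medians were also taken by subunit in Heroin-SA against Saline-SA. The median log2 fold change was -0.15 over 58 Rpl genes, 12 of them above 0, and -0.0048 over 31 Rps genes, 14 of them above 0; the difference was not tested. Of all genes, 51.7% lay above 0. The median over all members was -0.11, over all genes 0.0089 and over the other short genes -0.0027. The members' median was -0.068 without Saline-SA replicate 3, -0.069 without Heroin-SA replicate 2 and -0.16 without Heroin-SA replicate 3. Markers of ependyma and motile cilia lay below 0 in 6 of 6, with 2 called (summed 4.67 to 9.84 FPKM in Heroin-SA and 6.21 to 17.0 in Saline-SA), and those of septum and ventral forebrain in 6 of 8, with 2 called (summed 45.1 to 51.3 FPKM in Heroin-SA and 45.5 to 67.0 in Saline-SA); their part was not tested. No gene reached an adjusted p of 0.05 by limma, and limma-voom called 11 members at the unadjusted limit, all lower.

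The controls of the 2 experiments were also compared, Saline-SA against Saline-Saline, and there many members were higher. Surgery, housing, light cycle, handling and the time from the last event to tissue all differ between these groups and cannot be told apart. The Saline-SA libraries are also those set against Heroin-SA above, so chance differences in them enter both comparisons, with opposite sign. Of 87 members tested, 43 were called higher and 0 lower (49.4%, against 17.0% of all genes called higher and 19.9% lower), and 32 had an adjusted p under 0.05, all higher, against 9.80% of all genes. In 31 the groups did not overlap and Saline-SA was higher, which 12.5% of all genes did. In all, 75 of 87 lay above 0 (50.9% of all genes), with a median of 0.28, against 0.0083 over all genes and 0.13 over the other short genes, of which 101 were called higher and 18 lower.

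Rpl3 rose from 272, 299, 286 and 287 FPKM in Saline-Saline to 377, 373, 385 and 357 in Saline-SA, without overlap, by 0.38 (SE 0.060, unadjusted p = 0.000134, adjusted p = 0.00311). Rpl29, a large-subunit protein that also binds heparin, rose from 307, 302, 341 and 329 to 375, 438, 478 and 489.6 FPKM, by 0.47 (SE 0.095, unadjusted p = 0.000778, adjusted p = 0.00887). The intronless Rpl5l1 row rose from 10.8, 13.9, 12.5 and 11.5 to 18.0, 19.6, 19.1 and 18.5 FPKM, by 0.63 (SE 0.088, unadjusted p = 5.75e-05, adjusted p = 0.00189), and had the smallest p among the members. In each of the 3 genes, all 4 Saline-SA libraries lay above all 4 Saline-Saline libraries, and the mean of Heroin-SA lay between, at 302 ± 21.1, 392 ± 51.3 and 16.3 ± 3.02 FPKM in that order.

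Among small-subunit genes, 10 of 31 were called. Rps7 rose from 431 ± 41.4 to 627 ± 127 FPKM (adjusted p = 0.0278), and Rps15, a protein of the subunit's head, from 405 ± 44.2 to 596 ± 124 (adjusted p = 0.0288). Rpl13a of the large subunit rose from 613 ± 51.4 to 794 ± 48.3 (adjusted p = 0.0148). Rps29 on chromosome 6, the small-subunit gene with the highest level, stood at 713 ± 177 against 587 ± 74.1 FPKM and was not called (0.26, SE 0.17, unadjusted p = 0.159).

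Large-subunit genes were called in 33 of 56. Of the 5S RNA partners, Rpl5 rose from 237 ± 9.86 to 305 ± 31.6 FPKM (adjusted p = 0.0138) and Rpl11 from 34.9 ± 3.60 to 49.5 ± 8.82 (adjusted p = 0.0259). At the tunnel exit, Rpl23a, a docking site for the signal recognition particle, rose from 456 ± 23.4 to 618 ± 74.5 (adjusted p = 0.0121). Rplp0 of the stalk rose from 268 ± 16.3 to 348 ± 35.0 (adjusted p = 0.0143), and Rplp1 on chromosome 8 was at 789 ± 115 against 602 ± 83.2, with an adjusted p of 0.0737. Rpl41, the member with the highest level, stood at 796 ± 145 against 672 ± 68.4 FPKM, a difference of 0.23 (SE 0.14, unadjusted p = 0.119). The paralogs Rpl22l1 and Rpl7l1 differed by 0.14 (SE 0.11, unadjusted p = 0.248) and -0.17 (SE 0.078, unadjusted p = 0.0627).

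Further genes gave the range of the rise. Rpl6 rose from 236, 267, 268 and 249 FPKM in Saline-Saline to 315, 352, 401 and 319 in Saline-SA, without overlap. Rpl24 rose from 257, 329.8, 289 and 290.4 to 358, 387, 398 and 379.5 FPKM, again without overlap. Rpl27a had one of the larger differences among the abundant genes, 0.51 (SE 0.12, unadjusted p = 0.00239, adjusted p = 0.0177), with 224, 266, 238 and 220.5 FPKM in Saline-Saline and 283, 325, 422 and 328 in Saline-SA. In Rpl27a, as in Rps7 and Rps15, Saline-SA replicates 3 and 4 were the highest. Rps24, Rps3a and Rps10 on chromosome 20 rose by 0.37, 0.38 and 0.31 on the log2 scale, with adjusted p-values of 0.0139, 0.0134 and 0.0259 by limma. Rpl19 and Rpl34, whose start sites carry the long pyrimidine runs shown above, rose by 0.25 and 0.35, with adjusted p-values of 0.0325 and 0.0394. Rps18 and Rps27, with long runs too, differed by 0.21 (SE 0.097, unadjusted p = 0.0574) and -0.036 (SE 0.13, unadjusted p = 0.779).

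Fits without some libraries and levels of cell type markers were read beside this comparison. Without Saline-SA replicates 3 and 4 together, 46 members were called at the unadjusted limit and 13 at the adjusted one, with a median of 0.29; leaving out 1 library at a time gave 37 to 49 and 15 to 36. The adjusted count was 15 without Saline-Saline replicate 1 or 4, 18 without Saline-Saline replicate 3 and 21 without Saline-SA replicate 3. With mitochondrial reads left out of the scaling, 51 members were called and 41 passed adjustment. Beside the members, markers of medium spiny neurons lay above 0 in 13 of 14 (summed 2087 to 3545 FPKM in Saline-SA and 1389 to 2768 in Saline-Saline), oligodendrocyte markers below 0 in 10 of 10 (4752 to 5425 and 5017 to 7796), endothelial markers above 0 in 7 of 7 (99.3 to 133 and 83.1 to 90.5) and red blood cell genes above 0 in 5 of 5 (597 to 4649 and 408 to 598). Oligodendrocyte precursor markers lay below 0 in 6 of 6, with 2 called. Astrocyte markers lay below 0 in 7 of 9, with 3 called lower and 1 higher. Markers of fibroblasts and mural cells lay above 0 in 7 of 11, with 4 called higher. The part of these cell types in the result was not tested.

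**Figure D5:**
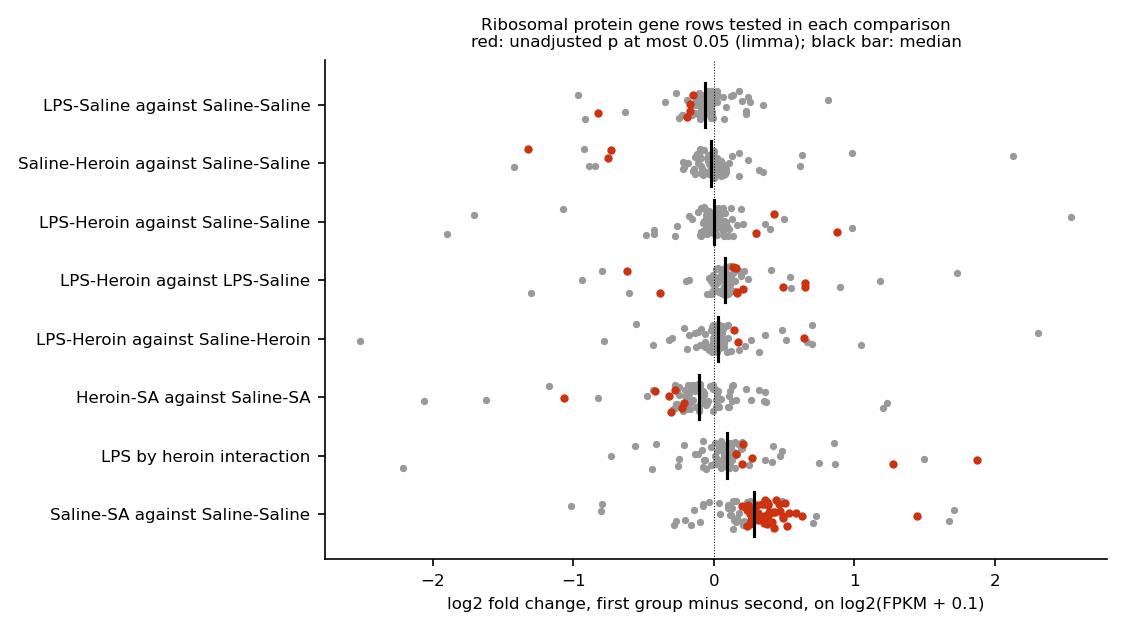
Log2 fold changes of the members tested in each comparison, 1 point per gene (x axis: difference of log2(FPKM + 0.1)), red at an unadjusted p of at most 0.05, with a black bar at the members' median. The points of Saline-SA against Saline-Saline lie above 0 in 75 of 87 genes with a median of 0.28, and those of Heroin-SA against Saline-SA have a median of -0.11.

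Genes that act with the ribosome were read from lists written from general knowledge. Of the ribosomal genes that the name rule misses, Rpsa, the laminin receptor and small-subunit protein, and Rpl36al rose in Saline-SA against Saline-Saline, by 0.50 (SE 0.11, adjusted p = 0.0108) and 0.50 (SE 0.15, adjusted p = 0.0366). Rpsa was lower in Heroin-SA than in Saline-SA, at 381 ± 36.9 against 471 ± 55.0 FPKM (-0.30, SE 0.11, adjusted p = 0.362). Of 21 rows of other TOP mRNAs, which encode elongation and initiation factors and further proteins such as Naca and Btf3 of the nascent chain complex, 7 were called higher and 1 lower in Saline-SA, where 17.0% of all genes were called higher and 19.9% lower. In the same list 4 passed adjustment, Eef1g, Eif3f, Eif3k and Naca, as did 3584 of all 15150 genes. In Heroin-SA against Saline-SA, 4 of the 21 were called, all lower (5.32% of all genes), with Btf3 at 259 ± 13.9 against 300.4 ± 13.9 FPKM.

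Assembly factors and genes of the mTOR pathway were called in both directions. Of 37 ribosome assembly factors, 3 were called higher and 6 lower in Saline-SA against Saline-Saline, to be read, like the counts that follow, against the 17.0% and 19.9% of all genes. Dkc1, the pseudouridine synthase of box H/ACA particles, rose by 0.46 (SE 0.096, adjusted p = 0.00972), and Ncl (nucleolin) fell from 118 ± 2.48 to 83.6 ± 4.11 FPKM, a difference of -0.50 (SE 0.056, adjusted p = 0.000657). Of 15 RNA polymerase I genes, 3 were called in each direction. Of 23 mTOR pathway genes, 4 were called higher and 7 lower. Larp1, which binds the TOP motif, fell from 25.0 ± 1.70 to 13.5 ± 0.443 FPKM (-0.88, SE 0.070, adjusted p = 0.000175), and Deptor, an inhibitor within the mTOR complexes, from 7.64 ± 0.935 to 2.78 ± 0.231 (-1.42, SE 0.12, adjusted p = 0.000224). Eif4ebp1, a repressor of cap-dependent translation, rose from 5.43 ± 0.937 to 8.25 ± 1.60 (0.59, SE 0.16, adjusted p = 0.0312). Among 18 eIF2 and eIF4 factors, Eif1 rose (0.28, SE 0.059, adjusted p = 0.0110). In Heroin-SA against Saline-SA, Larp1 was higher, at 17.0 ± 2.91 against 13.5 ± 0.443 FPKM (0.31, SE 0.12, adjusted p = 0.401), and Rrp12 and Ltv1, both factors of small-subunit maturation, differed by -0.45 (SE 0.14, adjusted p = 0.347) and -0.28 (SE 0.085, adjusted p = 0.344). In the comparisons of injected rats, at most 4 genes of any of these 6 lists were called, and none passed adjustment.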

How the data were processed

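Poly(A) RNA-seq of the NAc was held for 24 libraries, 4 for each of 6 groups taken from the labels; the methods of the study state more sequenced samples per group, and the rest were not analysed here. The authors' provider used fastp for trimming, HISAT2 for alignment and featureCounts for counting, on rn6 by the submitters' processing notes, and the authors deposited FPKM. Tool versions, annotation release, use of strand and the treatment of reads that fit several places are not given in the sources used here, so rows with copies or overlapping genes are uncertain.

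Each FPKM value above 0 was a whole number of reads within 0.01 reads in 100% of cases, and the authors' scaling total was 0.940 to 1.05 times each library's sum of such reads. Log2(FPKM + 0.1) of genes with a mean of at least 0.5 FPKM was fitted with limma-trend (limma 3.58.1, R 4.3.3) over the 8 libraries compared, 16 for the interaction, with Benjamini-Hochberg adjustment over all genes tested. This shrinks fold changes of scarce genes. Single members were also compared by 2-sided exact permutation of 4 against 4 libraries, for which 0.0286 is the smallest p. The fits were tested on simulated data. Figures were drawn with matplotlib 3.10.9 in Python 3.11.15.

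The members, lists, markers and rules were chosen with earlier results of these data known. Members named were those with the 3 highest or lowest mean levels, those past an unadjusted p of 0.05 and a 1.3-fold change, the 3 smallest p-values of each comparison, paralog pairs, and the 3 largest and smallest SDs; from the pathway lists, genes past both limits. Other genes named, such as Rpl5, Rpl8, Rpl19, Rpl34, Rplp0, Rps2, Rps6, Rps18, Rps20, Rps23, Rps24 and Rps3a, were chosen after their values were seen. Alternatives were other pseudocounts, filters and scalings, 1 fit of all libraries, limma-voom on recovered reads, a replicate block and fits without 1 library; after seeing the data, rows summed by protein, mitochondrial reads left out of the scaling and Saline-SA replicates 3 and 4 left out together were added. Same-numbered libraries were not paired. Results for a few genes are not reported here.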

Additional observations from a re-analysis of the deposited data

Results flagged for a closer look

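In groups of 4 libraries, the highest or lowest library was set against the rest of its group, for part of the members only. In 20 of 313 such groups, a library's gap to its neighbour was too large by Dixon's test at the 95% level. Chance gives about 1 in 20 groups. Rows such as Rpl8, at 5.67, 212, 7.06 and 21.9 FPKM in Saline-SA replicates 1 to 4, were not among the 20. In 15 of the 20 the library stood high. Among abundant genes, the library that stood high was Saline-Heroin replicate 4 for Rpl41 (664 FPKM) and Rps27 (205), Saline-Saline replicate 2 for Rps7 (492), LPS-Saline replicate 4 and LPS-Heroin replicate 3 for Rps16 (438 and 391), Heroin-SA replicate 3 for Rpl24 (385) and LPS-Saline replicate 1 for Rpl12 (299). Low libraries were Saline-SA replicate 4 for Rpl7 (60.3) and Heroin-SA replicate 2 for the Rps10 copy on chromosome 6 (36.7).

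Scarce rows gave the rest. The Rpl35a row on chromosome 12 at 7424258 reached 23.5 FPKM in LPS-Saline replicate 3, 15.2 in Saline-Heroin replicate 1 and 30.4 in Saline-SA replicate 2, with at most 0.218 in the other libraries of these groups. The Rpl35a copy on chromosome 6 read 6.02 in Saline-Saline replicate 1, and the Rpl7a row on chromosome 3 at 5459160 only 0.545 there. Rps29 on chromosome 13 read 2.02 in LPS-Saline replicate 1. Of the Rpl39 copies, that on chromosome 20 was listed at 0 in LPS-Saline replicate 4 and at 2.86 in Heroin-SA replicate 3, that on chromosome 18 at 1.33 in Saline-Saline replicate 3 and that on chromosome 15 at 0.398 in Saline-Saline replicate 1. The single read of Rplp2 gave 0.180 in Saline-Heroin replicate 1.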

How the results depend on the processing

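The direction of the calls turned in some alternatives: without Saline-Saline replicate 2, Saline-Heroin against Saline-Saline had 4 members higher and 2 lower, and without Saline-SA replicates 3 and 4, Heroin-SA against Saline-SA had 3 higher and 1 lower. Of the values of named members under the alternatives, 1345 kept their side of the unadjusted limit of 0.05 and 259 lost it. Counts of called members that moved over 1.5 times were as follows. For LPS-Saline against Saline-Saline the 5 became 8 by limma-voom. For Saline-Heroin against Saline-Saline the 3 became 1 by limma-voom and 1 with rows summed by protein, and for LPS-Heroin against Saline-Saline the 3 became 1 with rows summed. For LPS-Heroin against LPS-Saline the 10 became 5 after quantile normalization, 4 in the fit of all 24 libraries, 6 by limma-voom and 6 with rows summed, and for LPS-Heroin against Saline-Heroin the 3 became 0 by limma-voom. For Heroin-SA against Saline-SA the 7 became 16 after quantile normalization, 18 in the fit of all 24, 11 by limma-voom and 4 without Saline-SA replicates 3 and 4. The 6 of the interaction became 2 in the fit of all 24, and the 32 adjusted calls of Saline-SA against Saline-Saline became 13 without Saline-SA replicates 3 and 4. Without mitochondrial genes in the total, the members' shares were 1.31%, 1.25%, 1.30%, 1.31%, 1.67% and 1.51% for Saline-Saline, LPS-Saline, Saline-Heroin, LPS-Heroin, Saline-SA and Heroin-SA, a smaller total by construction. Otherwise the cause was not tested.

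Leaving out 1 library gave 0 to 7 calls for LPS-Saline against Saline-Saline (median -0.12 to -0.011), 2 to 6 for Saline-Heroin against Saline-Saline (-0.062 to 0.022), 1 to 5 for LPS-Heroin against Saline-Saline (-0.030 to 0.058), 4 to 17 for LPS-Heroin against LPS-Saline (0.049 to 0.11), 0 to 4 for LPS-Heroin against Saline-Heroin (0.012 to 0.064), 1 to 18 for Heroin-SA against Saline-SA (-0.16 to -0.068), 2 to 9 for the interaction (0.042 to 0.13), and 37 to 49 unadjusted and 15 to 36 adjusted calls for Saline-SA against Saline-Saline (0.24 to 0.35). The medians of Saline-Heroin and LPS-Heroin against Saline-Saline thus took both signs. Same-numbered libraries did not deviate together: 3 of 28 pairs correlated over 0.1 (range -0.150 to 0.154), and in 10 of the 28 the library correlated best with its own number. With the replicate block, 3 members were called in LPS-Saline against Saline-Saline and 11 in Heroin-SA against Saline-SA, and no other count moved over 1.5 times. Depth limits the scarce rows, some of which rest on fewer than 10 reads a library.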

Other observations

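Single rows of 3 abundant proteins varied widely within groups, given here as values chosen after they were seen. Rpl17, a protein of the tunnel exit, ran from 88.6 to 390.0 FPKM over the 24 libraries, with a within-group SD of 0.702 on the log2 scale, and overlaps another row. Its 4 Saline-Saline libraries read 93.6, 320.2, 115 and 100.4 FPKM and its 4 Saline-SA libraries 241, 260.1, 155 and 249. The Rpl7a row on chromosome 3 at 4867233 read 106, 7.44, 9.22 and 20.5 FPKM in Saline-Saline and 10.6, 7.79, 93.9 and 36.5 in LPS-Saline, and the highest library of each was replicate 1 and replicate 3. Rps27a read 222, 354, 436 and 492 FPKM in Saline-SA and 339.5, 203, 479 and 429.8 in Heroin-SA, and the groups overlapped.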
